A study of Mus musculus with 40 samples.

Results

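The genes described here encode the secreted Wnt proteins, the surface proteins that receive them and the secreted proteins that modulate the signal. They were chosen by name, as the protein-coding mouse genes whose symbol is Wnt, Fzd, Sfrp, Dkk or Rspo followed by a digit, together with Frzb, Wif1, Lrp5 and Lrp6. The rule found 45 of the 45706 genes in the expression tables, which were 19 Wnt ligands, 4 R-spondins, 10 Frizzled receptors, 2 LRP co-receptors and 10 secreted inhibitors. RNA was sequenced from 40 libraries of sorted mouse cells in 10 groups of 4. Tumor-bearing mice carried Apc fl/fl and the Cdx2CreERT2 transgene, in which a tamoxifen-inducible Cre is expressed under the control of Cdx2, a gene of the intestinal epithelium. They had received 1 injection of tamoxifen at 25 mg/kg at an age of 8 to 10 weeks, and their strain label reads C57Bl6/Sv followed by a number that runs from 129 to 152 over 24 libraries. Healthy mice were labeled C57Bl6, with no transgene, no agent and no age. Tumor epithelial cells, tumor stromal cells, tumor neutrophils, tumor monocytes and the blood neutrophils and blood monocytes of tumor-bearing mice came from the former. Healthy colon epithelial and stromal cells and healthy blood neutrophils and monocytes came from the latter, so genotype, strain, tamoxifen and tumor cannot be told apart between them. Epithelial cells were sorted as EpCAM+ CD45-, stromal cells as EpCAM- CD45-, neutrophils as CD11b+ MHCII- Ly6G+ and monocytes as CD11b+ MHCII- Ly6G- Ly6C-high cells.

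Wnt proteins are lipid-modified ligands that bind a Frizzled receptor together with the co-receptor LRP5 or LRP6, which stops the destruction of β-catenin and lets it switch on target genes with TCF/LEF factors. R-spondins raise the response by protecting Frizzled and LRP proteins from the ubiquitin ligases RNF43 and ZNRF3. Secreted Frizzled-related proteins and WIF1 bind Wnt proteins outside the cell, and some Dickkopf proteins bind the LRP co-receptors. In the intestine the stem cells at the crypt base depend on Wnt and R-spondin from cells around them, and APC is part of the complex that destroys β-catenin inside the cell, below all of these proteins in the pathway.

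Levels are given in RPKM, the authors' reads scaled to gene length and to the mapped reads of the library, as mean ± SD of 4 libraries. Where 4 values are listed they are those of replicates 1 to 4. Changes are log2 fold changes from edgeR's quasi-likelihood test on counts. A gene was called when its p-value, adjusted by Benjamini-Hochberg over all genes tested, was under 0.05 and its absolute log2 fold change above 1.5. Genes with low counts were filtered out first. The filter keeps a gene with enough counts in 1 group alone. Such a gene, if nearly absent from the other group, could only be called in 1 direction. SE is the standard error. Statements that libraries of the groups compared did not overlap describe the genes named. Overlap was not counted over all genes, so these statements add no support to a call. Library titles hold numbers that differ within a group, some joining a pair of numbers, and the study describes its RNA samples as derived individually. The labels tie no library to a mouse, so the p-values measure the spread between these libraries, which may in part be technical. Counts on genes totaled 10717873 to 38002939 per library.

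Some libraries stood apart in their makeup. The mitochondrial share of the counts was 48.6% to 83.9% in healthy epithelial cells, highest in replicate 4, where the 45 genes summed to 3.29 RPKM. In the tumor epithelial libraries it was 46.3% to 60.5%. It was 55.4%, 62.9%, 27.4% and 24.8% in tumor stromal replicates 1 to 4 and 15.6% to 24.9% in healthy stromal cells. The summed RPKM of 10 epithelial markers was 243, 135, 50.7 and 36.5 in the 4 tumor stromal libraries, against 160.1 to 399 in the tumor epithelial libraries and 2.35 to 39 in healthy stromal cells. A list of 6 endothelial markers summed to 4.61, 3.9, 118 and 132 in tumor stromal replicates 1 to 4 and to 26.4 to 129.7 in healthy stromal cells. The sum of 8 fibroblast markers was 497 to 2671 in healthy but 6.93 to 26.2 in tumor stromal cells, so the tumor stromal libraries held few fibroblast transcripts, though none of the 8 markers was without counts, and replicates 1 and 2 held few endothelial transcripts. Neutrophil markers, 6 genes, summed to 41.7, 8.54, 1561 and 527 RPKM in tumor stromal replicates 1 to 4. Tumor neutrophils held epithelial transcripts as well, at a sum of 192, 48.2, 36.3 and 12.2, as did tumor monocytes, at 1.83, 42.5, 15.5 and 11.7, against at most 1.58 in any blood library. The neutrophil markers summed to 1919 to 12408 RPKM in tumor neutrophils and 3746 to 8555 and 15491 to 20218 in the blood neutrophils of healthy and tumor-bearing mice. The 5 monocyte markers summed to 902 to 1208 RPKM in tumor monocytes and 2300 to 4385 and 2040 to 3717 in the 2 groups of blood monocytes.

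Of the 45 genes, 21 reached a mean of 1 RPKM in at least 1 group, and 10 stayed under 0.1 RPKM in all groups. Healthy stromal cells had 18 genes at a mean of 1 RPKM or more and the highest mean of 25 of the 45 genes. Their summed level was 141.7 ± 36.0 RPKM. By summed level tumor epithelial cells came next, with 9 genes at 1 RPKM or more and a sum of 55.9 ± 7.14 RPKM, against 3 genes and 15.7 ± 8.85 RPKM in healthy epithelial cells. Tumor stromal cells had 10 such genes and a sum of 42.4 ± 16.3 RPKM. These sums were not adjusted for the mitochondrial share of the counts. That share was 15.6% to 24.9% in healthy stromal, 48.6% to 83.9% in healthy epithelial and 46.3% to 60.5% in tumor epithelial cells. In the blood, neutrophils had no gene at 1 RPKM and monocytes had 4 in healthy and 3 in tumor-bearing mice.

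**Figure D1:**
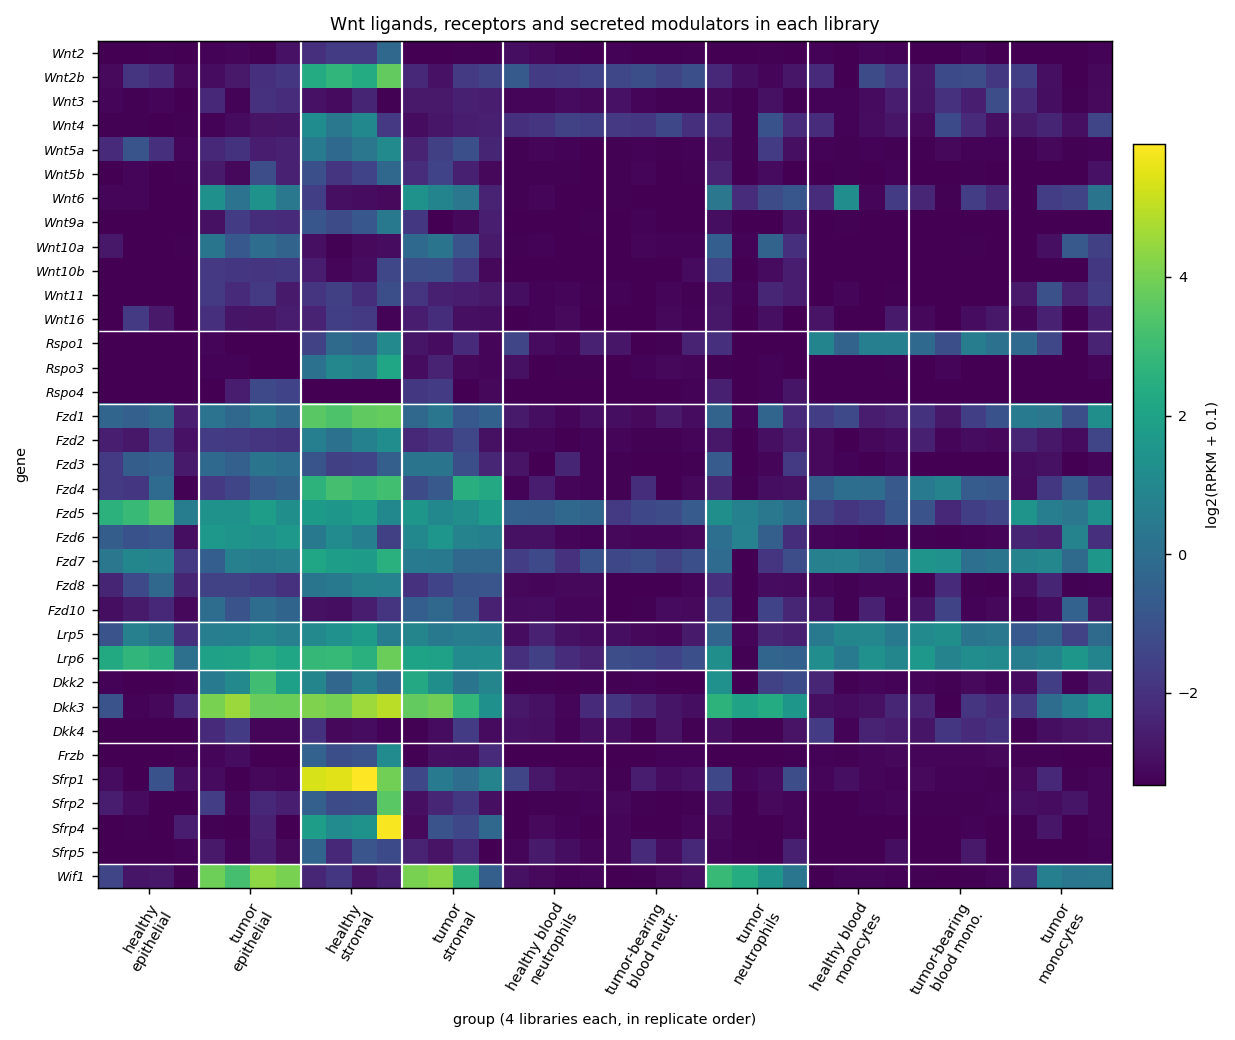
Levels of the 35 genes with a mean of at least 0.1 RPKM in 1 or more groups, as log2(RPKM + 0.1), with a column for each of the 40 libraries, white lines between groups of 4 and between gene families. The secreted inhibitors Sfrp1, Sfrp4 and Dkk3 are bright in healthy stromal cells, Wif1 and Dkk3 in tumor epithelial libraries and tumor stromal replicates 1 and 2, and blood neutrophils are mostly dark, with faint Fzd5, Fzd7, Lrp6, Wnt2b and Wnt4.

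Tumor and healthy epithelial cells were compared to ask which parts of the system differ in the cells where Apc is deleted. In tumor epithelial cells, 4 ligands, 2 receptors and 3 secreted inhibitors were higher and 1 receptor was lower. These 10 were called among 21 genes that passed the filter on low counts, 9 higher and 1 lower, while 15.4% of all 16085 genes tested were called, 7.52% higher and 7.88% lower. The other 24 were too low to be tested, among them all 4 R-spondins. The median log2 fold change was 0.64 over the 21 and -0.01 over all genes. Wnt6, Wnt10b, Wnt11 and Dkk2 had at most 3 counts over the healthy libraries together and passed the filter through their tumor counts. They could only be called higher, so the filter in part sets the lean of these counts and of the median.

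Among the ligands, Wnt6 (chromosome 1 from 74771892 to 74785322 of mm10) measured 2.4, 1.04, 2.49 and 1.19 RPKM in tumor epithelial cells. In healthy epithelial cells it had 3 counts over all 4 libraries together. The ratio of counts was 213-fold, with a 95% counting interval from 72.9 to 1037, and the edgeR adjusted p was 6.3e-05. Wnt10a is the next member on the same chromosome and strand, 6193 bases beyond the end of Wnt6. It stood at 0.778 ± 0.27 RPKM in tumor and 0.0142 ± 0.0255 in healthy epithelial cells (log2 change of 5.13 with SE 1.04, adjusted p = 0.00531 by edgeR). Without healthy replicate 1 the log2 change of Wnt10a was 7.59. Wnt10b and Wnt11 were called at lower levels. Wnt10b stood at 0.178 ± 0.00969 RPKM and had no counts in the healthy libraries, which makes it at least 4.85-fold higher (edgeR adjusted p = 0.00123, floor of 3 counts per library). Wnt11, a ligand known for β-catenin-independent signaling, stood at 0.144 ± 0.0659 RPKM and had 1 count in healthy cells, a ratio of 74.3-fold, with a 95% counting interval from 13.1 to 2958 (edgeR adjusted p = 0.00318). No tumor library overlapped a healthy one for any of the 4.

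All 3 inhibitors tested were called, and Dkk3 and Wif1 were the most abundant of the 45 genes in tumor epithelial cells. Dkk3 is counted with the inhibitors by its family name alone. Dkk3, a divergent Dickkopf family member, measured 16.6, 22.9, 13.9 and 14.2 RPKM in tumor epithelial libraries and 0.419, 0.00611, 0.0143 and 0.116 in healthy ones (log2 change of 5.97 with SE 1.12, adjusted p = 0.00328 by edgeR). Wif1, Wnt inhibitory factor 1 (chromosome 10 from 121033960 to 121100650), measured 14.5, 9.13, 20.3 and 16.3 RPKM in tumor and 0.282, 0.0432, 0.0494 and 0.00427 in healthy libraries (log2 change of 6.76 with SE 0.72, adjusted p = 1.3e-04 by edgeR). The lowest tumor library was thus far above the highest healthy library for both genes. Healthy replicate 1 was the highest healthy library for both, and without it the log2 changes were 6.88 and 8.35. Dkk2 (chromosome 3 from 132085292 to 132180304), which binds LRP5 and LRP6, measured 1.33, 1.93, 8.39 and 3.59 RPKM in tumor, a range in which replicate 3 was highest. It had 3 counts over the healthy libraries together, a ratio of 863-fold, with a 95% counting interval from 295 to 4187 (edgeR adjusted p = 6.6e-05).

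The 300 bases around the start of 5 of these genes are shown because the genes moved together or, for Wnt2b, because it was the leading Wnt ligand of healthy stromal cells. They run from 250 bases before to 50 after the start in RefSeq, build GRCm38.p6, read 5′ to 3′ on the gene's strand. Capitals mark a TCF/LEF word, searched on both strands as CTTTG followed by AA, AT, TA or TT.
Wif1 (chr10:121033754-121034053, plus strand): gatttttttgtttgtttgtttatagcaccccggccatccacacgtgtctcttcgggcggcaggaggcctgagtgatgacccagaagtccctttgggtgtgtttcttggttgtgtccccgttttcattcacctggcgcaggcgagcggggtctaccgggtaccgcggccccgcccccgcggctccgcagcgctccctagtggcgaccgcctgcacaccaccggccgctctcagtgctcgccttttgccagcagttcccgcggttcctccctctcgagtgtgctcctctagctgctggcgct
Dkk2 (chr3:132085042-132085341, plus strand): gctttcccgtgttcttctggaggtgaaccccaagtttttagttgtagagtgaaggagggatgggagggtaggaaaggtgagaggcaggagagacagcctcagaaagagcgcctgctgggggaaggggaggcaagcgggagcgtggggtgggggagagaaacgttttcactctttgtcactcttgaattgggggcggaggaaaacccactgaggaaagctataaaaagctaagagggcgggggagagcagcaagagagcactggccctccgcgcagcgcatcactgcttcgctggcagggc
Wnt6 (chr1:74771642-74771941, plus strand): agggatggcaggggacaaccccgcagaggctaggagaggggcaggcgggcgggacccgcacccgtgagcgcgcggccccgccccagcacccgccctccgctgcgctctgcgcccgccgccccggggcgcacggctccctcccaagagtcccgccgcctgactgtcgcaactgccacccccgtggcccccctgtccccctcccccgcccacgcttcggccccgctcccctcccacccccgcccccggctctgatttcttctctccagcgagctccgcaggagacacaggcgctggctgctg
Wnt11 (chr7:98834862-98835161, plus strand): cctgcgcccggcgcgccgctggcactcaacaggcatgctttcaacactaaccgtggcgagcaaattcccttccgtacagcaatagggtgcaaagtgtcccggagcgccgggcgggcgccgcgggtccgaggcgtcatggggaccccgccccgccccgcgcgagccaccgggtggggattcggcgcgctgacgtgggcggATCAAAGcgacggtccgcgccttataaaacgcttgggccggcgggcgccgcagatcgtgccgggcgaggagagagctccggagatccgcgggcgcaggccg
Wnt2b (chr3:104961660-104961959, minus strand): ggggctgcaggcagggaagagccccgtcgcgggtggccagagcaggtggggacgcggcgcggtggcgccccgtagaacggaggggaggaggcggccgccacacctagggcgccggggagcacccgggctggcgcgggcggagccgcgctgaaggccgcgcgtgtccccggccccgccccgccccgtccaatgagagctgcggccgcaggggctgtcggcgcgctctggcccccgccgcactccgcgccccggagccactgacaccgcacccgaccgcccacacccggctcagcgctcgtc
Only the first of 2 Wnt11 starts held the word, as ATCAAAG on the strand shown, beginning at position -51. Windows were at hand for 29 of the 45 genes, and 5 of these (17.2%) held the word in at least 1 window (Dkk1, Fzd7, Wnt3, Wnt5b and Wnt11), against 18.9% of the 27025 genes with a window. Of the 9 genes higher in tumor epithelial cells 6 had a window and 1, Wnt11, held the word. The windows of the 45 genes were richer in CpG, with a median of 26.5 CpG sites against 7 over all 32851 windows. Wif1 had 25, Dkk2 11, Wnt6 31, Wnt11 45 in the window shown and Wnt2b 43.

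The receptors moved in both directions. Fzd6, a receptor tied mainly to β-catenin-independent signaling, measured 2.92, 2.67, 2.47 and 2.95 RPKM in tumor epithelial cells and 0.564, 0.396, 0.466 and 0.0259 in healthy ones (log2 change of 2.58 with SE 0.44, adjusted p = 0.00202 by edgeR). Fzd10 stood at 0.718 ± 0.222 RPKM in tumor and 0.0517 ± 0.0406 in healthy cells (log2 change of 3.34 with SE 0.48, adjusted p = 7.3e-04 by edgeR), and just missed the call in the fit of all 40 libraries (edgeR adjusted p = 0.0503). Neither gene's groups overlapped. Fzd5, which is known to be needed for Paneth cell maturation, went the other way. It measured 6.05, 7.31, 10.5 and 1.41 RPKM in healthy libraries, where it was the highest of the 45 genes, and 2.51, 2.56, 3.49 and 2.33 in tumor (log2 change of -1.68 with SE 0.18, adjusted p = 1.6e-04 by edgeR). Its RPKM overlapped only because of healthy replicate 4, the library with 83.9% mitochondrial counts, and leaving it out gave a log2 fold change of -1.72. The co-receptor Lrp6 stood at 4.47 ± 2.47 RPKM in healthy and 4.36 ± 0.656 in tumor cells, with a log2 fold change of -0.51 that passed the adjusted p-value (edgeR, 0.0459) but not the fold threshold. Lrp5 (0.64 ± 0.29 on the log2 scale, adjusted p = 0.15), Fzd7 (-0.33, 0.524), Fzd1 (0.35, 0.514) and Fzd3 (0.85, 0.117) were not called by edgeR.

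**Figure D2:**
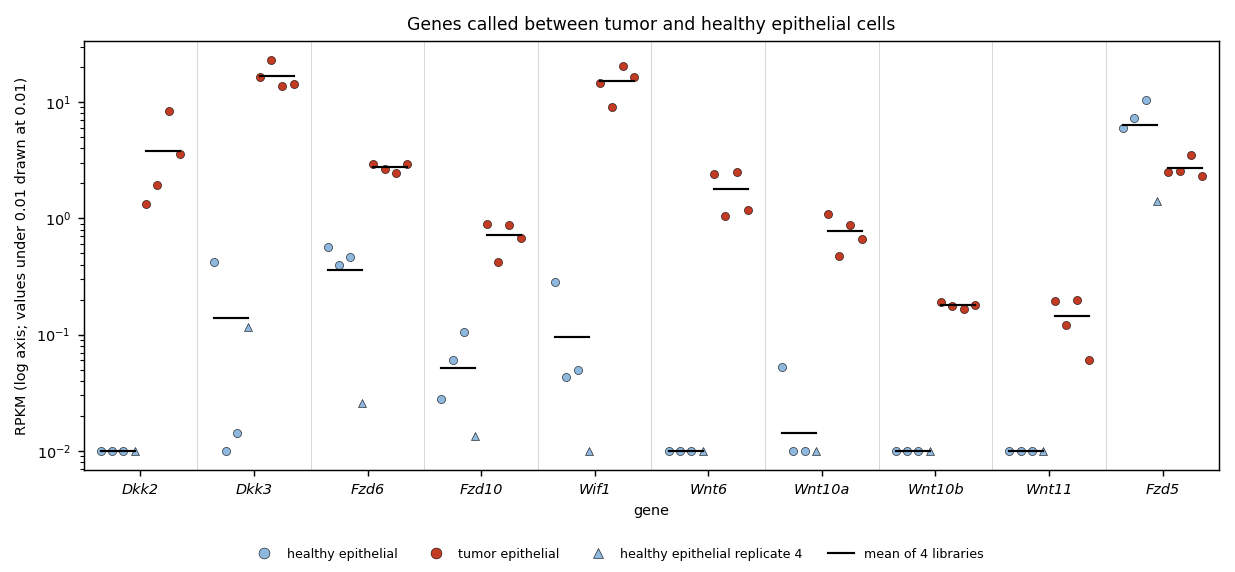
RPKM on a log axis of the 10 genes called between tumor and healthy epithelial cells, 1 point per library with the mean as a bar and the healthy library with 83.9% mitochondrial counts as a triangle. For the first 9 genes each tumor library lies above each healthy one, and for Fzd5 the 3 other healthy libraries, at 6.05 to 10.5 RPKM, lie above the tumor range of 2.33 to 3.49.

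Some genes too low for the test had counts in tumor and none in healthy epithelial cells. Wnt9a, whose neighbor is Wnt3a, had 125 counts in the 4 tumor libraries and 0 in the healthy ones. For Rspo4, which overlaps the antisense gene Rspo4os, the sums were 136 and 0 counts, spread over the tumor libraries as 0, 0.0619, 0.314 and 0.259 RPKM. With no filter on low counts 12 genes were called in place of 10, and 15 with 1 spread estimated over all 40 libraries.

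In the same comparison, 10 of the 26 genes of the pathway list were higher and none was lower, of 23 tested. Over all 16085 genes tested, 7.52% were called higher and 7.88% lower. The list held genes for Wnt secretion and removal, R-spondin receptors, ubiquitin ligases, alternative receptors, further modulators and the cytoplasmic relay. Several of those that rose are feedback inhibitors. Notum, a secreted enzyme that removes the lipid from Wnt proteins, rose to 10.2 ± 4.06 RPKM (log2 fold change 6.28, edgeR adjusted p = 8.9e-04). Nkd1, an inhibitor of the Dishevelled relay, rose by 6.32 on the log2 scale to 17.3 ± 2.29 RPKM, and Apcdd1, a membrane-bound Wnt inhibitor, by 6.37 to 10.4 ± 2.55 (edgeR adjusted p = 8.1e-04 and 0.00124). The ligases Rnf43 and Znrf3 rose by 2.01 and 2.23 (adjusted p = 5.7e-04 and 1.5e-04), and the R-spondin receptor Lgr6 by 5.43 (adjusted p = 2.2e-04). Ptk7, an alternative Wnt receptor, rose by 3.17 (adjusted p = 0.00107), and the 3 other called genes were Ror1, Ror2 and Trabd2b.

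Healthy stromal and epithelial cells were set against each other to see where the system is expressed in the colon without tumor. Stromal cells had more of nearly every ligand, R-spondin and secreted inhibitor that could be tested, and epithelial cells more of Fzd5. Of the 29 genes tested 19 were called higher in stromal cells and 1 lower. The other 16 were too low to be tested. Genes nearly absent from epithelial cells passed the filter on low counts through their stromal counts. Such genes could only be called higher in stromal cells, so the filter in part sets these numbers. Of all 18468 genes tested, 30.9% were called, 19.4% higher and 11.5% lower, and their median log2 fold change was 0.14. By role, 7 of 8 ligands tested, 2 of 2 R-spondins, 3 of 9 receptors, 0 of 2 co-receptors and 7 of 8 inhibitors were higher.

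Wnt2b led the ligands, at 5.07, 6.61, 5.05 and 13 RPKM in healthy stromal and 0.0168, 0.168, 0.117 and 0.0189 in healthy epithelial libraries (log2 change of 5.79 with SE 0.61, adjusted p = 1.4e-04 by edgeR). A Gm gene, Gm43846, overlaps Wnt2b on the same strand, and reads of the pair could have been split in counting. Wnt4 measured 2.17, 1.21, 1.87 and 0.193 RPKM in stromal libraries and had 3 counts in the epithelial ones together, a ratio of 278-fold, with a 95% counting interval from 95 to 1349 (edgeR adjusted p = 4.2e-04). Replicate 4, richest in fibroblast markers, was the lowest for Wnt4 and the highest for Wnt2b. Wnt5a, the prototype ligand of β-catenin-independent signaling, measured 1.32, 0.786, 1.18 and 2.05 RPKM in stromal and 0.115, 0.424, 0.136 and 0.00805 in epithelial libraries (log2 change of 2.39 with SE 0.60, adjusted p = 0.0116 by edgeR), and without epithelial replicate 2 the log2 change was 3.11. Below 1 RPKM, Wnt9a, Wnt5b, Wnt2 and Wnt11 had stromal means of 0.625, 0.391, 0.322 and 0.223 RPKM and at most 3 counts in epithelial cells. All 4 were called, with Wnt9a at least 19.1-fold and Wnt2 at least 6.69-fold higher against a floor of 3 counts per library.

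R-spondins were counted in stromal and not in epithelial cells of healthy colon. Rspo3, the main R-spondin of colon stroma, measured 0.991, 1.82, 1.52 and 4.26 RPKM in stromal cells and had 0 counts in epithelial cells, at least 47.7-fold higher (edgeR adjusted p = 5.8e-04). Rspo1 measured 0.247, 0.814, 0.642 and 1.92 RPKM and was likewise without epithelial counts, at least 16.3-fold higher (edgeR adjusted p = 0.00232). For both, replicate 4 was the highest library. Rspo2 had 45 counts in stromal cells and was not tested, and Rspo4 had 0 counts in both cell types.

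Inhibitors gave the highest levels of the 45 genes in stroma. Sfrp1 measured 41, 44.7, 60.2 and 15.3 RPKM in healthy stromal and 0.023, 0.00221, 0.402 and 0.0305 in healthy epithelial libraries (log2 change of 7.73 with SE 1.22, adjusted p = 0.0011 by edgeR). Dkk3 measured 17.5, 15.7, 23.4 and 31.2 RPKM in stromal cells, near its level in tumor epithelial cells of 16.9 ± 4.19 (log2 change of 5.88 with SE 1.27, adjusted p = 0.00535 by edgeR against healthy epithelial cells). Sfrp4 and Sfrp2 were dominated by replicate 4, where they measured 56.8 and 11.7 RPKM, against 2.09 to 3.45 and 0.344 to 0.607 in the 3 other libraries. Both were called (7.85 and 6.24 on the log2 scale, edgeR adjusted p = 0.00821 and 0.0137), and without replicate 4 the log2 fold changes were 5.04 and 3.29 (adjusted p = 0.0165 and 0.0343). The highest values with 1 library left out were 11.46 for Sfrp4, without epithelial replicate 4, and 7.71 for Sfrp2, without epithelial replicate 1. The Dkk2 level was 1.73, 0.725, 1.46 and 0.8 RPKM in stromal cells, a ratio of 210.0-fold, with a 95% counting interval from 71.7 to 1020 over epithelial cells (edgeR adjusted p = 4.2e-04). Without epithelial replicate 3 the log2 change of Sfrp1 was 9.14, and without epithelial replicate 1 that of Dkk3 was 6.59. Frzb and Sfrp5 were called at means of 0.881 and 0.391 RPKM.

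Among receptors, Fzd1 (11.6, 9.86, 12.5 and 13.2 RPKM, log2 change of 3.70 with SE 0.33, adjusted p = 6.1e-05 by edgeR) and Fzd4 (6.18, 9.14, 7.52 and 8.51 RPKM, log2 change of 4.21 with SE 0.80, adjusted p = 0.00282 by edgeR) were the most abundant in healthy stromal cells. Fzd4 is the receptor of Norrin in endothelial cells, and its log2 change was 5.18 without epithelial replicate 3. Fzd2 was also higher, at 1.5, 1.02, 1.58 and 2.18 RPKM (log2 change of 3.22 with SE 0.50, adjusted p = 9.9e-04 by edgeR). Healthy epithelial cells had 0.0723 to 0.811 RPKM of Fzd1, 0.00351 to 0.827 of Fzd4 and 0.0358 to 0.201 of Fzd2, with no overlap for any of the 3. Fzd5 was lower in stromal than in epithelial cells, at 3.21, 2.84, 3.52 and 1.89 RPKM (log2 change of -1.92 with SE 0.25, adjusted p = 4.4e-04 by edgeR). Fzd7, at 4.18 ± 1.08 RPKM, passed the adjusted p-value but not the fold threshold (1.10, edgeR adjusted p = 0.0108). Lrp6 stood at 8.47 ± 3.76 RPKM and Lrp5 at 2.3 ± 0.843, and neither was called against epithelial cells. The pathway list had 9 genes higher in stromal cells and 3 lower of 24 tested, against 19.4% and 11.5% of all 18468 genes tested. Those higher were Porcn, which loads the lipid onto Wnt proteins, Ror1, Ror2, Ptk7, Sostdc1, Trabd2b, Gpc3, Dvl2 and Nkd2, and the 3 lower were Lgr4, Lgr5 and Rnf43, of which Lgr4 stood at 1.25 RPKM in stromal and 5.26 in epithelial cells.

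Tumor stromal cells were then compared with healthy stromal cells. By role, 4 of 11 ligands tested, 2 of 2 R-spondins, 4 of 9 receptors, 0 of 2 co-receptors and 1 of 8 inhibitors were lower in the tumor stromal libraries, and 2 ligands, Wnt6 and Wnt10a, and 1 inhibitor, Wif1, were higher. Of 32 genes tested, 3 were higher and 11 lower, against 3.39% and 5.01% of the 19081 genes tested in all, together 8.4%. The median log2 fold change was -1.47 over the 32 and 0.03 over all genes. Fibroblast markers were lower as well, with a sum from 6.93 to 26.2 RPKM in tumor against 497 to 2671 in healthy stromal cells. Among healthy stromal libraries, replicate 4 had the highest fibroblast sum. It had the highest Wnt2b, Rspo1 and Rspo3 but the lowest Sfrp1 and Wnt4. A second fibroblast list held 6 markers of crypt-side and telocyte-like fibroblasts. It summed to 20.0 to 28.9 RPKM in tumor against 57.5 to 76.2 in healthy stromal cells. The same list summed to 18.7 to 30.8 RPKM in tumor epithelial cells, so it is not particular to fibroblasts here. In tumor stromal cells 2 of its genes reached a mean of 1 RPKM, against 5 in healthy stromal cells. Other stromal lists were lower too. Smooth muscle and pericyte markers summed to 4.00 to 30.9 RPKM in tumor and 34.6 to 161 in healthy stromal cells. Enteric glia markers summed to 0.311 to 0.931 and 1.92 to 7.41. The endothelial sum was lower in tumor replicates 1 and 2 alone. The part of fibroblasts or of any other cell type in the lower levels was not tested. In RNA from bulk sorted cells, fewer cells of a type and less RNA per cell cannot be told apart.

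The ligand Wnt2b measured 0.103, 0.0361, 0.196 and 0.274 RPKM in tumor stromal libraries, against a lowest healthy value of 5.05 (log2 change of -5.32 with SE 0.65, adjusted p = 0.00473 by edgeR). Wnt4 measured 0.0249, 0.0483, 0.0632 and 0.0753 RPKM (log2 change of -4.28 with SE 0.73, adjusted p = 0.0105 by edgeR), and Wnt5a 0.0892, 0.238, 0.375 and 0.0959 (log2 change of -2.38 with SE 0.54, adjusted p = 0.0291 by edgeR). Each tumor library lay below each healthy library for all 3, although healthy replicate 4 came close for Wnt4 at 0.193 RPKM. Wnt2 had 0 counts in tumor and 199 in healthy stromal cells, at least 11.4-fold lower (edgeR adjusted p = 0.0176, floor of 3 counts per library). Rspo3 fell to 0.0224, 0.0849, 0.0137 and 0.0102 RPKM (log2 change of -5.61 with SE 0.90, adjusted p = 0.0087 by edgeR) and Rspo1 to 0.0437, 0.0236, 0.113 and 0.0133 (log2 change of -3.94 with SE 0.88, adjusted p = 0.0275 by edgeR).

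Of the 4 receptors that were lower, Fzd1 had the largest fold change, with 0.763, 1.13, 0.48 and 0.627 RPKM in tumor against 9.86 to 13.2 in healthy stromal cells (log2 change of -3.56 with SE 0.37, adjusted p = 0.00433 by edgeR). Fzd2 measured 0.105, 0.151, 0.288 and 0.0333 RPKM (log2 change of -3.08 with SE 0.60, adjusted p = 0.0164 by edgeR), Fzd7 1.25, 1.24, 0.746 and 0.761 against 3.27 to 5.69 (log2 change of -1.68 with SE 0.34, adjusted p = 0.0191 by edgeR) and Fzd8 0.152, 0.259, 0.429 and 0.436 against 1.1 to 1.65 (log2 change of -1.78 with SE 0.39, adjusted p = 0.0254 by edgeR). None of these 4 overlapped between the groups. For the inhibitor Sfrp1 the tumor libraries held 0.3, 1.28, 0.887 and 1.65 RPKM, at most a small part of the lowest healthy value of 15.3 (log2 change of -4.89 with SE 0.65, adjusted p = 0.0053 by edgeR). Sfrp2 (-4.94 on the log2 scale, adjusted p = 0.0628), Sfrp4 (-5.09, 0.0594) and Frzb (-3.99, 0.0519) missed the edgeR threshold. Fzd4 was split, with 0.346, 0.495, 5.54 and 4.72 RPKM, lower in the libraries poor in endothelial markers than in the others, and was not called (-1.23, edgeR adjusted p = 0.37).

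The 3 genes that were higher are those that were also higher in tumor epithelial cells. Wif1 measured 16.5, 19.3, 6.21 and 0.601 RPKM in tumor and 0.0399 to 0.173 in healthy stromal libraries (log2 change of 7.18 with SE 1.15, adjusted p = 0.00864 by edgeR), with no overlap. Wnt10a measured 0.794, 1.08, 0.409 and 0.0581 RPKM against 0.00289 to 0.0309 (log2 change of 5.26 with SE 0.99, adjusted p = 0.015 by edgeR). Wnt6 measured 2.57, 1.7, 1.17 and 0.0866 RPKM against 0.231, 0.029, 0.0248 and 0.0163 (log2 change of 4.59 with SE 1.19, adjusted p = 0.0436 by edgeR), where tumor replicate 4 lay below the highest healthy library. In all 3, replicates 1 and 2 were highest and replicate 4 lowest, the order of the epithelial marker sum between these pairs of libraries, 243, 135, 50.7 and 36.5 RPKM. The part of epithelial transcripts in these rises was not tested.

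**Figure D3:**
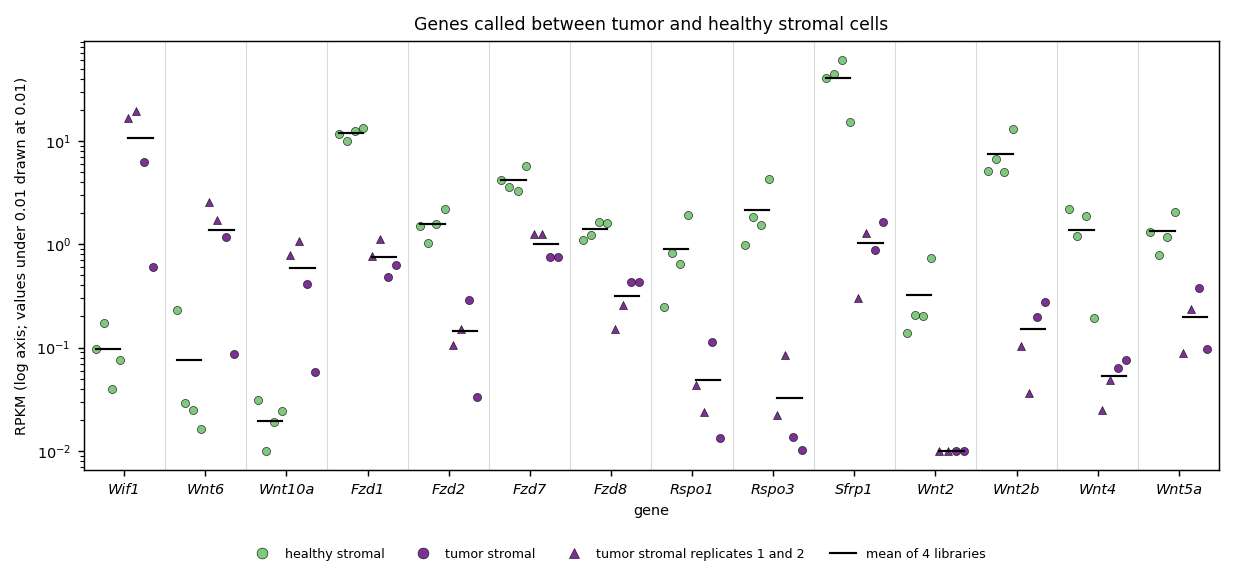
RPKM on a log axis of the 14 genes called between tumor and healthy stromal cells, 1 point per library with the mean as a bar and tumor stromal replicates 1 and 2, which are richest in epithelial markers, as triangles. For the 11 genes on the right all tumor points lie below the healthy points, and for Wif1, Wnt6 and Wnt10a the triangles are the highest tumor points.

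Without tumor stromal replicates 1 and 2 together, 7 genes were called in place of 14. The calls of Wnt6, Wnt4, Wnt5a, Rspo1, Fzd8 and Fzd2 were lost in that fit, with log2 fold changes of 3.32, -3.97, -2.23, -3.63 and -1.41 for the first 5 (edgeR adjusted p of 0.0581 to 0.176). Wnt10a was too low to be tested there. With limma-voom 9 genes were called, and Wif1 (adjusted p = 0.0764), Wnt10a (0.0788), Wnt4 (0.07), Wnt6 (0.126) and Rspo1 (0.0789) lost their calls. In the fit of all 40 libraries Fzd7 and Fzd8 lost theirs (edgeR adjusted p = 0.0535 and 0.22). With 1 library left out at a time, 10 to 16 genes were called. Wnt6 lost its call without tumor stromal replicate 1, 2 or 3 or healthy stromal replicate 2, 3 or 4 (edgeR adjusted p of 0.0675 to 0.124), and Wnt5a without tumor replicate 1 or 2 or healthy replicate 1, 3 or 4 (0.0517 to 0.0613). Rspo1 lost it without tumor replicate 1 or 2 or healthy replicate 2 (0.0604 to 0.0696), Fzd8 without tumor replicate 2 or healthy replicate 2 or 3 (0.0554 to 0.0638), and Wnt10a without healthy replicate 2 (0.0513). Fzd7 fell short of the fold threshold without healthy replicate 4, at -1.47. The log2 changes moved as well, Wnt6 to 6.24 without healthy replicate 1, Rspo3 to -6.89 without tumor replicate 2 and -5.01 without healthy replicate 4, and Wif1 to 6.59 without tumor replicate 2.

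In the same comparison the pathway list had 7 genes higher and 3 lower of 24 tested, against 3.39% and 5.01% of all 19081 genes tested. Notum, Lgr5, Lgr6, Rnf43, Znrf3, Apcdd1 and Nkd1 were higher in tumor stromal cells, and Ror1, Trabd2b and Nkd2 were lower. As 2 examples of those higher, Nkd1 measured 19.4, 16.8, 5.23 and 2.14 RPKM and Rnf43 8.01, 8.24, 2.17 and 0.646 in tumor stromal replicates 1 to 4. In tumor epithelial cells they measured 14.7 to 20.3 and 7.81 to 9.86. The part of epithelial transcripts in the changes of the pathway list was not tested.

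Between tumor stromal and tumor epithelial cells, none of the 27 genes tested was called by edgeR, where 0.0294% of all 16985 genes were called. At an unadjusted p under 0.05 there were 2, limma-voom called 0 and DESeq2 2. Tumor stromal replicates 1 and 2 were near the tumor epithelial libraries in epithelial and endothelial marker sums and in mitochondrial share. Endothelial markers summed to 4.61 and 3.9 RPKM in these replicates and to 4.5 to 4.87 in tumor epithelial libraries. The lack of calls is thus no measure of likeness between the cell types. The highest fold change was that of Sfrp1, at 0.3, 1.28, 0.887 and 1.65 RPKM in stromal and 0.0196, 7.4e-04, 0.0146 and 0.008 in epithelial libraries (log2 change of 6.56 with SE 0.85, adjusted p = 0.0514 by edgeR), with no overlap. For Dkk3 and Dkk2, stromal replicates 1 and 2 were higher than replicates 3 and 4. Dkk3 measured 12.7, 15, 6.85 and 2.41 RPKM in the stromal libraries against 16.9 ± 4.19 in epithelial cells, and Dkk2 4.72, 2.35, 1.06 and 1.74 against 3.81 ± 3.2. Fzd4 was 2.78 higher on the log2 scale (edgeR adjusted p = 0.177) through replicates 3 and 4 alone. Without replicates 1 and 2 together 6 genes were called, and without replicate 1 or replicate 2 alone 2 and 1.

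The change in stromal cells was then tested against the change in epithelial cells, as an interaction over the 16 libraries. Of 35 genes tested, 12 had a lower change in stroma and 1, Fzd5, a higher one, while 14.1% of 20901 genes were called, 6.81% lower and 7.25% higher. Fzd5 had a difference of 1.87 ± 0.31 on the log2 scale (edgeR adjusted p = 9.4e-04), with a change of -1.68 in epithelial and 0.20 in stromal cells. Dkk2 (-7.77 ± 1.08, adjusted p = 3.3e-04) and Dkk3 (-6.75 ± 1.39, adjusted p = 0.00435) were higher in tumor epithelial cells, with stromal changes of 1.48 and -0.83 that were not called. Fzd1 (-3.91 ± 0.49), Fzd2 (-3.55 ± 0.80) and Wnt2b (-5.12 ± 0.92) were lower in stroma, with epithelial changes of 0.35, 0.46 and -0.21 (edgeR adjusted p of the differences 1.5e-04, 0.00746 and 0.00176). Wnt4, Wnt11, Wnt5b, Wnt9a, Wnt2, Sfrp2 and Sfrp5 completed the list. The fitted differences of Wnt2 and Wnt9a rest on groups with 0 counts and have no size that can be read. Those of Dkk2, Wnt4, Wnt5b, Wnt11 and Sfrp5 rest on at most 3 counts over the healthy epithelial libraries together, so their sizes are imprecise. Wif1, higher in both, had a difference of 0.43 ± 1.23 (edgeR adjusted p = 0.864). The calls of 3 genes were lost in several of the fits with 1 library left out. Sfrp5 lost its call without tumor stromal replicate 1 or 2, healthy epithelial replicate 1, 2 or 3, tumor epithelial replicate 1, 3 or 4, or healthy stromal replicate 1, 3 or 4 (edgeR adjusted p of 0.0556 to 0.109). Sfrp2 lost it without tumor stromal replicate 1 or 4, healthy epithelial replicate 2 or 3, tumor epithelial replicate 1 or healthy stromal replicate 4 (0.0508 to 0.123), and Wnt5b without tumor stromal replicate 1 or 3, healthy epithelial replicate 1 or 3, tumor epithelial replicate 3 or healthy stromal replicate 4 (0.0531 to 0.0766). With limma-voom Sfrp2 and Sfrp5 lost their calls (adjusted p = 0.166 and 0.0596). In a fit with the number in the library titles as a block, Fzd5, Fzd2, Wnt2, Wnt4, Wnt5b, Wnt11 and Sfrp5 lost their calls (edgeR adjusted p of 0.0543 to 0.666). There Wnt4 had a difference of -1.61. That fit left 1 residual degree of freedom.

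**Figure D4:**
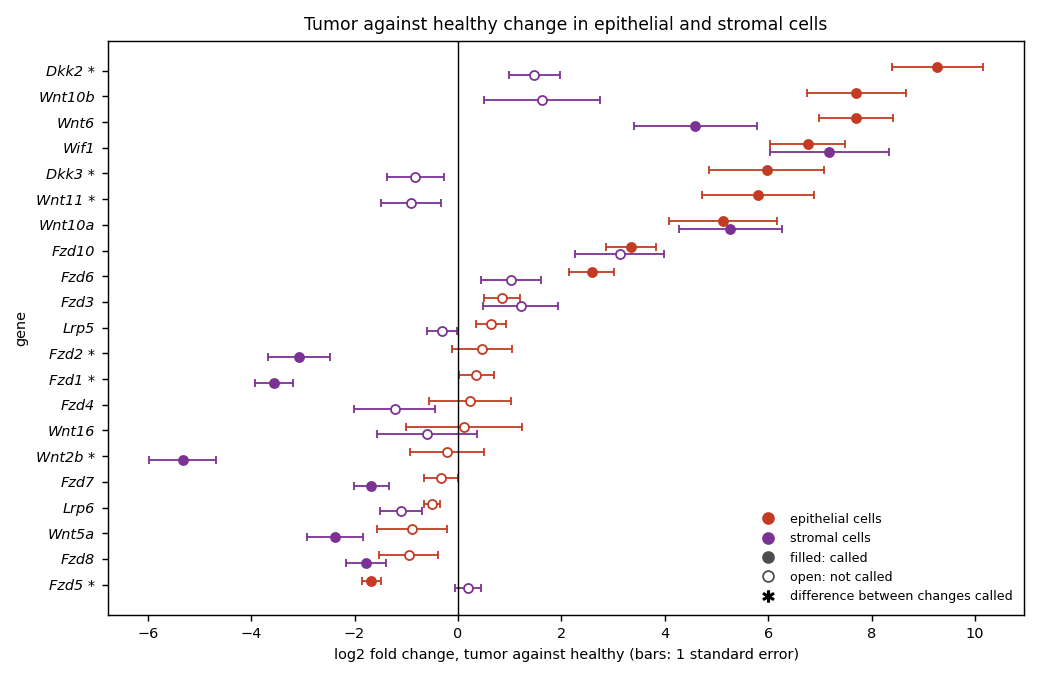
Log2 fold changes of tumor against healthy cells for the 21 genes tested in both cell types, in epithelial and stromal cells, with bars of 1 standard error, filled points for called changes and an asterisk where the difference between the changes was called. Dkk2, Dkk3 and Wnt11 lie far to the right in epithelial cells alone, Fzd1, Fzd2 and Wnt2b to the left in stromal cells alone, and Wif1, Wnt6 and Wnt10a to the right in both.

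No pathway-list gene was called between tumor stromal and tumor epithelial cells or between the blood groups of tumor-bearing and healthy mice. In the interaction 8 of 24 were called, against 14.1% of all 20901 genes tested. Lgr5 and Rnf43 had a higher and Ror1, Ror2, Ptk7, Trabd2b, Gpc3 and Nkd2 a lower change in stroma.

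In blood, monocytes carried a small set of these genes and neutrophils very little. In healthy mice Rspo1, a secreted agonist, measured 1.7, 0.675, 1.47 and 1.5 RPKM in blood monocytes and 0.283, 0.0209, 0.0131 and 0.0807 in blood neutrophils, and all monocyte libraries lay above all neutrophil libraries. It is one of the 4 genes named here because they reached a mean of 1 RPKM in healthy blood monocytes, so their levels beside those of neutrophils are a description, with no test and no share over all genes. This mean of 1.34 RPKM was the highest of Rspo1 in any group, above healthy stromal cells at 0.905 ± 0.716, with overlapping libraries. The co-receptors Lrp6 and Lrp5 measured 2.23, 1.3, 2.45 and 1.77 and 1.22, 1.8, 1.84 and 1.24 RPKM in healthy blood monocytes, against 0.0896 to 0.234 and 0.0247 to 0.0796 in neutrophils. Fzd7 measured 1.51, 1.62, 1.18 and 0.912 RPKM in monocytes and 0.152 to 0.404 in neutrophils. In tumor-bearing mice Rspo1 stood at 0.782, 0.362, 1.36 and 1.02 RPKM in monocytes and at most 0.0904 in neutrophils. The genes Fzd5 and Wnt2b, at 0.663 ± 0.0861 and 0.3 ± 0.145 RPKM, were the highest in healthy blood neutrophils. An other-strand gene, Gm12930, overlaps Rspo1, and the library protocol the study describes has no step that keeps strand.

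Blood cells of tumor-bearing and healthy mice showed no call. In neutrophils 0 of 8 genes tested were called by edgeR and 4.01% of all 13360 genes, with 2 of the 8 at an unadjusted p under 0.05 and 0 called by limma-voom or DESeq2. Lrp6 passed the adjusted p-value without the fold, at 0.36, 0.317, 0.258 and 0.38 RPKM in tumor-bearing and 0.145, 0.234, 0.124 and 0.0896 in healthy mice (log2 change of 1.22 with SE 0.30, adjusted p = 0.0394 by edgeR), with no overlap. In monocytes 0 of 13 genes were called by edgeR and 0.209% of all 15313, with 1 of the 13 at an unadjusted p under 0.05 and 0 called by limma-voom or DESeq2. Rspo1 was at 0.882 ± 0.421 RPKM in blood monocytes of tumor-bearing mice (log2 fold change -0.49, edgeR adjusted p = 0.79).

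Neutrophils from the tumor were compared with those in the blood of the same kind of mice. Dkk3, Wif1, Wnt6, Fzd1, Fzd5 and Fzd6 were higher in tumor neutrophils and Wnt2b was lower, 7 of the 12 genes tested. Of all 13674 genes, 16.3% were called, 11.9% higher and 4.41% lower. Dkk3 measured 6.2, 3.9, 4.98 and 2.85 RPKM in tumor and 0.177, 0.101, 0.0443 and 0.0265 in blood neutrophils (log2 change of 5.73 with SE 0.64, adjusted p = 6.0e-04 by edgeR). Wif1 measured 7.41, 5.22, 2.62 and 1.15 against 4.6e-04 to 0.0287 (log2 change of 8.46 with SE 1.04, adjusted p = 7.9e-04 by edgeR). Fzd6 measured 0.935, 1.6, 0.599 and 0.13 against 0.011 to 0.019 (log2 change of 6.18 with SE 1.00, adjusted p = 0.00243 by edgeR) and Fzd5 2.33, 1.55, 1.21 and 0.906 against 0.197 to 0.53 (log2 change of 2.20 with SE 0.51, adjusted p = 0.0144 by edgeR). The groups did not overlap for any of these 4. Wnt6 measured 1.17, 0.123, 0.345 and 0.457 RPKM and had 1 count in blood neutrophils, a ratio of 289-fold, with a 95% counting interval from 51.4 to 11458 (edgeR adjusted p = 0.00168). Fzd1, at 0.665, 0.0121, 0.709 and 0.121 RPKM against 0.019 to 0.0538, overlapped (log2 change of 3.37 with SE 1.05, adjusted p = 0.048 by edgeR). Wnt2b went from 0.292, 0.361, 0.274 and 0.381 in blood to 0.108, 0.0266, 0.00933 and 0.0476 in tumor (log2 change of -2.82 with SE 0.78, adjusted p = 0.0297 by edgeR).

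All 6 genes that were higher are expressed in tumor epithelial cells, at 16.9 RPKM for Dkk3, 15.1 for Wif1, 2.75 for Fzd6, 2.72 for Fzd5, 1.78 for Wnt6 and 0.926 for Fzd1. The epithelial marker sum was 192, 48.2, 36.3 and 12.2 RPKM in tumor neutrophils and 0.659 to 1.58 in blood neutrophils. Replicate 4, with the lowest sum among tumor neutrophils, also had the lowest Dkk3, Wif1, Fzd5 and Fzd6, whereas Wnt6 and Fzd1 were lowest, and Fzd6 highest, in replicate 2. The part of epithelial transcripts in these rises was not tested. Without tumor neutrophil replicate 2, where Lrp6, Fzd7 and Lrp5 measured at most 0.00851 RPKM, 13 genes were called in place of 7, and 15 in a fit of all 40 libraries. Without that replicate the log2 change of Fzd6 was 5.10. Fzd1 lost its call with limma-voom (adjusted p = 0.137), with no filter on low counts (0.0691) and without tumor replicate 1, 3 or 4 or any blood replicate (edgeR adjusted p of 0.0506 to 0.133), Wnt2b without tumor replicate 3 or 4 or any blood replicate (0.0536 to 0.0717), and Fzd5 without blood replicate 1 or 2 (0.0524 and 0.0560). In the pathway list 7 of 13 genes tested were higher and none lower, against 11.9% and 4.41% of all 13674 genes tested. The 7 were Lgr4, Lgr5, Rnf43, Znrf3, Apcdd1, Gpc4 and Nkd1.

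Tumor monocytes were compared with blood monocytes in the same way. Dkk3, Wif1, Wnt11, Fzd1, Fzd5 and Fzd6 were higher, 6 of 16 genes tested, and none was lower. Over all 15280 genes 11.7% were called, 7.76% higher and 3.89% lower. Fzd5 measured 2.68, 1.44, 1.16 and 2.41 RPKM in tumor and 0.409, 0.106, 0.232 and 0.278 in blood monocytes (log2 change of 3.17 with SE 0.46, adjusted p = 0.00112 by edgeR). It was higher than in tumor neutrophils on average, at 1.92 ± 0.734 against 1.5 ± 0.614, with overlapping libraries. Fzd1 measured 1.31, 1.16, 0.371 and 2.29 RPKM against 0.154, 0.0508, 0.225 and 0.397 (log2 change of 2.85 with SE 0.68, adjusted p = 0.0168 by edgeR), with overlap. Dkk3 measured 0.186, 0.889, 1.49 and 2.65 RPKM against 0.00242 to 0.161 (log2 change of 4.05 with SE 0.96, adjusted p = 0.0161 by edgeR). Wif1 measured 0.128, 1.48, 1.14 and 1.18 RPKM and had 1 count in blood, a ratio of 742-fold, with a 95% counting interval from 133 to 29360 (edgeR adjusted p = 6.9e-04). Fzd6 measured 0.0945, 0.0812, 1.65 and 0.137 against 0.00204 to 0.013 (log2 change of 6.36 with SE 1.32, adjusted p = 0.00842 by edgeR), with 1 high library, replicate 3, without which the log2 change was 3.99. Wnt11 stood at 0.188 ± 0.153 RPKM, at least 14.2-fold higher than in blood, where it had 0 counts (edgeR adjusted p = 0.00439).

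Lrp5 was lower on average in tumor monocytes, at 0.486, 0.668, 0.256 and 0.803 RPKM against 2.05, 2.35, 1.07 and 1.19 in blood, with no overlap. It passed the adjusted p-value but not the fold threshold (log2 change of -1.36 with SE 0.38, adjusted p = 0.0318 by edgeR). Lrp6 and Fzd7, at 1.91 ± 0.642 and 1.78 ± 0.821 RPKM in tumor monocytes, had log2 fold changes of 0.08 and 0.25 (edgeR adjusted p = 0.891 and 0.739), and Rspo1 one of -1.35 (0.429). The epithelial marker sum in tumor monocytes was 1.83, 42.5, 15.5 and 11.7 RPKM. Replicate 1, with almost no epithelial transcripts, had Wif1 at 0.128 and Dkk3 at 0.186 RPKM, the lowest of the 4, and Fzd5 at 2.68 and Fzd7 at 1.66 RPKM. Wif1 was highest in replicate 2, with the highest marker sum, but Dkk3 in replicate 4. In tumor epithelial cells the means were 16.9 for Dkk3, 15.1 for Wif1, 2.75 for Fzd6, 2.72 for Fzd5, 0.926 for Fzd1 and 0.144 for Wnt11. Those of Fzd1 and Wnt11 were below the tumor monocyte means of 1.28 and 0.188 RPKM. The part of epithelial transcripts in the rises was not tested. Without blood monocyte replicate 1 Dkk3 and Fzd1 lost their calls (edgeR adjusted p = 0.0510 and 0.0529), and Fzd1 also without tumor monocyte replicate 4 (0.0506). Of the pathway list, Znrf3 and Nkd1 were called, both higher, of 12 tested, against 7.76% of all 15280 genes called higher.

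**Figure D5:**
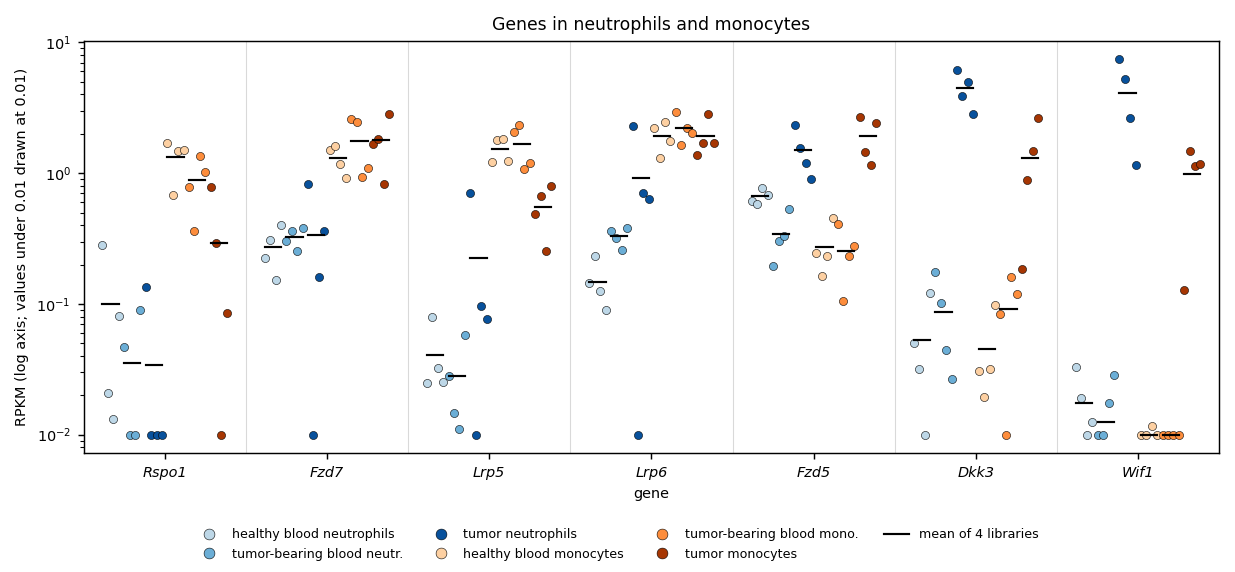
RPKM on a log axis of Rspo1, Fzd7, Lrp5, Lrp6, Fzd5, Dkk3 and Wif1 in the 6 groups of neutrophils (blue) and monocytes (orange), 1 point per library with the mean as a bar. Rspo1, Fzd7, Lrp5 and Lrp6, chosen for their level in blood monocytes, have higher means there than in blood neutrophils, and Fzd5, Dkk3 and Wif1 are higher in the tumor groups than in blood.

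The remaining genes were low throughout. Dkk1, Fzd9, Rspo2, Wnt1, Wnt3a, Wnt7a, Wnt7b, Wnt8a, Wnt8b and Wnt9b stayed under 0.1 RPKM in all 10 groups. Of those between 0.1 and 1 RPKM at their highest mean, Fzd3 reached 0.854 RPKM in tumor epithelial cells, Rspo4 0.159 there, Wnt3 0.156 in blood monocytes of tumor-bearing mice, Dkk4 0.122 there and Wnt16 0.13 in healthy stromal cells. None of these 5 was called in any of the 9 comparisons by edgeR. Annotated genes overlap 12 of the 45, among them Fzd5, Fzd6, Wnt5a, Wnt6, Wnt11 and Sfrp2 on the other strand. Their counts are uncertain, as the library protocol describes no step that keeps strand.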

How the data were processed

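RNA was isolated with the PicoPure kit and turned into double-stranded cDNA with the NuGEN Ovation RNA-Seq system. The cDNA was fragmented and made into TruSeq Nano libraries for sequencing. The authors converted the runs with bcl2fastq, aligned reads to the mouse genome mm10 with Bowtie2 and counted them per gene with HTSstation. The deposited tables hold estimated counts per gene (99.6% of the nonzero values are not whole), which were rounded to whole numbers here, and RPKM values. The library protocol, from fragmented double-stranded cDNA, describes no step that keeps strand, so reads of genes overlapping on opposite strands could not be separated by strand. Gene symbols and positions come from GENCODE M21.

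Counts were tested in R 4.3.3 with edgeR 4.0.16 (TMM factors, filterByExpr, robust quasi-likelihood fit) over the libraries compared, with Benjamini-Hochberg adjustment over all genes tested. The study used limma with voom, which was run as an alternative (limma 3.58.1), as was DESeq2 1.42.0. The pipeline was tested on simulated data. Ratios for genes with 1 to 3 counts in a group have 95% intervals, and bounds use a floor of 3 counts per library. Intervals and floors cover counting error only. Blood monocytes and neutrophils are described by RPKM, with no test. At 10717873 to 38002939 counts a library (median 16338416), with a large mitochondrial share in some, the low genes rest on few reads.

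The 45 genes, the pathway list and the marker lists were chosen with earlier results of these data known. Genes called in a comparison that reach a mean of 1 RPKM in a group are given by library, others by mean or range. Called genes of the pathway list are named. Promoter windows are RefSeq's (GRCm38.p6), with the gene's first base at position 1, the base before it at -1 and no position 0.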

Additional observations from a re-analysis of the deposited data

Results flagged for a closer look

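In 55 groups of 4 libraries in which a gene's mean reached 1 RPKM, 4 held a library apart from the other 3 by Dixon's criterion at 95%, where chance gives about 1 in 20. Lrp6 in healthy stromal replicate 4 was high at 14.0 RPKM, as were Sfrp2 at 11.7 and Sfrp4 at 56.8 in the same library, which also had the highest fibroblast marker sum of its group. Fzd7 in tumor epithelial replicate 1 was low at 0.570 RPKM. The remaining results listed here are those where the change in tumor stromal cells differed from that in tumor epithelial cells, by an interaction test in edgeR. The stromal minus the epithelial log2 fold change was 1.87 for Fzd5. It was -7.77 for Dkk2, -6.75 for Dkk3, -6.56 for Sfrp2 and -5.22 for Sfrp5 among the inhibitors, and -3.91 for Fzd1 and -3.55 for Fzd2 among the receptors. Among the ligands it was -5.12 for Wnt2b, -6.79 for Wnt4, -5.23 for Wnt5b and -6.73 for Wnt11. For Wnt2 it was -12.56 and for Wnt9a -10.78, both set by the prior count because a group had 0 counts. The sizes for Dkk2, Wnt4, Wnt5b, Wnt11 and Sfrp5 are imprecise, as they rest on at most 3 counts over the healthy epithelial libraries together.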

How the results depend on the processing

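Over 70 calls of a gene in a comparison, no alternative reversed a direction, 1159 values kept their call, 100 lost it, and 24 calls were lost in at least 1 setting. The setting with no fold threshold reuses the main fit, so 70 of the 1159 values kept their call by construction. Between tumor and healthy stromal cells 14 genes were called, but 9 with limma-voom, 9 with a replicate block (without Wnt2, Wnt5a, Rspo1, Fzd2 and Fzd7) and 7 without both tumor stromal replicates 1 and 2. Between tumor stromal and epithelial cells there were 0, but 2 with DESeq2, 1 with no filter on low counts, 2 with a fit of all 40 libraries, 6 without both tumor stromal replicates 1 and 2 and 4 with the number in the library titles as a block, and 0 to 2 with 1 library left out. Between tumor and blood neutrophils there were 7, but 15 with a fit of all 40 libraries, 4 with a replicate block and 5 to 13 with 1 library left out. In blood neutrophils of tumor-bearing against healthy mice 1 gene, Lrp6, passed with no fold threshold, in place of 0. The cause of these differences was not tested. Counts not given here stayed within 1.5 times. Fits with 1 library left out gave 10 to 12 calls in epithelial cells, 10 to 16 in stroma and 4 to 7 in monocytes. Libraries with the same replicate number did not deviate together (correlations of -0.151 to 0.251, in no comparison all above 0.1), and 2 tumor stromal libraries carry the number 3, so the replicate block shares only a number. Replicate numbers do not follow the numbers in the titles. A title block could be fitted only between tumor stromal and epithelial cells (2 shared titles, correlations of 0.035 and 0.0545) and, chosen after the data were seen, for the difference between the stromal and epithelial changes (3 shared titles), where 8 genes were called in place of 13. Both left 1 residual degree of freedom. Other comparisons shared at most 1 title. The number of libraries and the few reads behind low genes limit the precision.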
